A study of Mus musculus with 6 samples.

Results

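Interferons are cytokines released when cells sense virus or when lymphocytes are activated. They bind paired receptor chains whose attached kinases, JAK1 with TYK2 or JAK2, activate STAT transcription factors, and these switch on a large set of interferon-induced genes. Type I interferons act mainly through the interferon-stimulated response element (ISRE), a DNA element of repeated GAAA letters, whereas interferon gamma acts first through the gamma-activated site (GAS). In the mammary gland, interferon-induced genes are known from immune, endothelial and epithelial cells, and some of them are also part of the normal programme of the gland. The 7 genes described here are the transcription factors Irf1 and Irf7, the ubiquitin-like protein gene Isg15, the antiviral RNA-binding protein genes Ifit1 and Ifit3, and the paired genes Ifi27 and Ifi27l2a, which encode small hydrophobic membrane proteins of the ISG12 family.

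The genes were taken as every probe set whose platform annotation names exactly 1 gene, that gene being one of the 7. This gave 7 of 8251 genes and 8 of the 12488 probe sets, since Irf7 has 2, and 0 probe sets named a member together with another gene. RNA came from thoracic mammary glands of virgin F1 CF-1/FVB females aged 16 weeks, either wild type or carrying a transgene that overexpresses luteinizing hormone (LH), the pituitary hormone that drives the ovary to make steroids. Each group held 3 Affymetrix arrays, with RNA of 3 mice pooled per array and 18 mice in all. The promoter that drives the transgene is not given in the sources used here. Values are the deposited signal on a linear scale, as mean ± SD over the 3 arrays of a group. Each difference is the LH transgenic mean less the wild type mean of log2(signal + 80.0), folds are given on that scale, and adjusted p values are limma's after Benjamini-Hochberg adjustment over 7453 tested probe sets. Nothing in the labels says how separate the pools were beyond their mice, so p-values measure the spread between these arrays. A probe set was tested where its mean signal reached 336.0, and called where the adjusted p was under 0.05. All values of a probe set are compared with its own values on other arrays, since signals of different probe sets share no scale.

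The deposited values were already scaled, with a trimmed mean signal of 1500.8 or 1500.9 on each array, while the bacterial hybridisation controls had a level of 3359 to 4433 on wild type arrays and 5219 to 7147 on LH transgenic arrays. Scaling to those controls instead moved the median difference of all tested probe sets from 0.02 to -0.62, and the differences below are relative to the deposited scale. Of the probe sets tested, 21.3% were called, 10.5% higher and 10.8% lower in the LH transgenic glands. The labelled tissue was checked on the luminal keratin gene Krt18, at 13208 ± 1081 and 13650 ± 1931, and on the casein gene Csn2, at 40554 ± 6247 and 74506 ± 2451 in wild type and LH transgenic glands. Skeletal muscle markers set LH transgenic pool 3 apart from its group. Their mean centred log2 level was 0.56 there, against -1.42 and -1.06 in LH transgenic pools 1 and 2 and 0.58 to 0.72 in wild type. In pooled whole glands, fewer cells of a type and less RNA per cell cannot be told apart.

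The elements through which interferon acts can be read in front of 4 of the genes, and they are shown to let their letters be read beside the values of these classical response genes. The sequences are RefSeq promoters of the GRCm38.p6 assembly, cut to bases upstream of the annotated start and printed 5′ to 3′ on the strand of the gene, with the matched letters in capitals. For Ifit3 the start is the one of the promoter table, and the RefSeq span of the gene begins further upstream, so the printed stretch lies within that span. The ISRE core was searched as GAAANNGAAA on both strands and the GAS as TTCNNNGAA, which reads the same on both strands.
Isg15, chr4:156200840-156200931, minus strand: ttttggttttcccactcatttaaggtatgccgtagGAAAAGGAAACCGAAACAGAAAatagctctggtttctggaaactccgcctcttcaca
Ifit1, chr19:34640750-34640848, plus strand: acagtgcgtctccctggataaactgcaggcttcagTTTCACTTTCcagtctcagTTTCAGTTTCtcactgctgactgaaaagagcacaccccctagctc
Ifit3, chr19:34583338-34583451, plus strand: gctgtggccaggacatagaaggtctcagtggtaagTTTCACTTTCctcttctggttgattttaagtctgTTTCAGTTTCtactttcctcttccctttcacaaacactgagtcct
Irf1, chr11:53769889-53769967, plus strand: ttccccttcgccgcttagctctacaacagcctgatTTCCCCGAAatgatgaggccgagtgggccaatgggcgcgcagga

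Isg15 held 3 overlapping ISRE core matches that run into one stretch, between bases -78 and -57 from the start. Ifit1 and Ifit3 each held 2, and in both genes the upstream one read TTTCACTTTC and the other TTTCAGTTTC, the ISRE core on the opposite strand. Irf1 held 1 GAS match, between bases -90 and -82, in 1 of its 2 windows. Neither motif had its letters in the 250 upstream bases of the single window of Irf7, and Ifi27 and Ifi27l2a were not among the promoters read here. Over all 32851 promoter windows, 2.98% held the ISRE core letters and 7.02% the GAS letters in their 250 upstream bases. A match is a run of letters and not a measured binding site.

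Among the 7 genes, the ISG12 pair fell in the LH transgenic glands and of the 5 classical response genes the 4 tested did not pass the test in either direction, while Ifit1 was too dim to be tested. Ifi27l2a was 4.60-fold lower and Ifi27 1.58-fold lower. The differences of the other tested members, of Irf1, Irf7, Isg15 and Ifit3, lay between -0.28 and 0.15. Of the 7 probe sets tested, 2 were called lower, beside 10.8% of all probe sets tested, and 0 were called higher by limma, with 0 higher at an unadjusted p under 0.05. With 7 probe sets, 2 calls are too few to set the genes apart from that background. The median difference was -0.22, beside 0.02 over all probe sets tested.

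**Figure D1:**
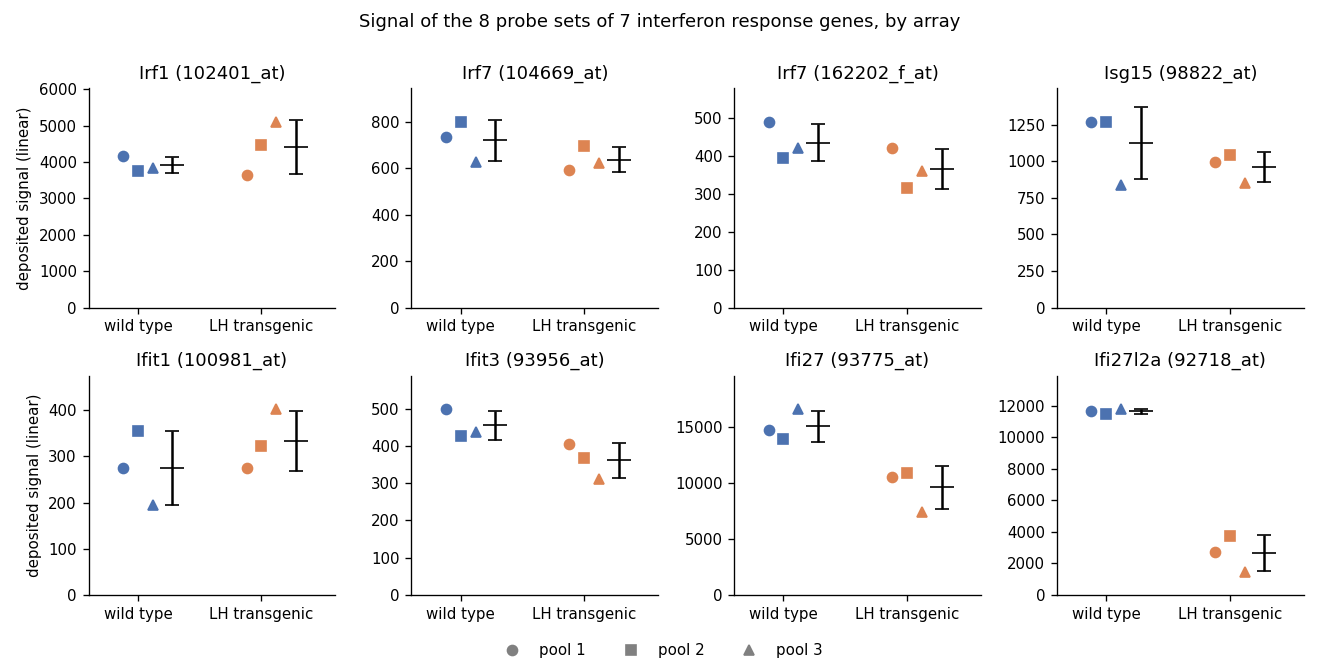
Deposited signal (vertical axes, linear, starting at 0) of the 8 probe sets in each of the 6 arrays; marker shapes are pools 1 to 3, and bars give mean ± SD over 3 arrays. Ifi27l2a and Ifi27 show 3 LH transgenic arrays below all 3 wild type arrays, Ifit3 does so by a narrow gap, and in the panels of the other genes the groups overlap.

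Ifi27l2a, the ISG12 family member that is strongly induced by interferon in mouse cells, had signals of 11704, 11504 and 11810.0 in wild type pools 1, 2 and 3. In LH transgenic pools 1, 2 and 3 its signals were 2752, 3724 and 1467. The wild type pools lay within a narrow band, the LH transgenic pools spread more widely, and the groups were far apart. The means were 11673 ± 155 and 2648 ± 1132, a log2 difference of -2.20 (SE 0.27, 95% interval -2.81 to -1.59, adjusted p 0.000884). Only 12 of the 7453 tested probe sets had a lower difference. The call was kept when any single array was left out, with differences of -2.49 to -1.84. With the macrophage marker level as a covariate the difference was -2.74 (SE 0.54) and the adjusted p 0.0937.

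Ifi27, its neighbour on the chromosome and a member of the same family, had signals of 14724, 13961 and 16641 in wild type pools 1, 2 and 3. The LH transgenic pools had 10567, 10893 and 7398. All 3 LH transgenic pools lay below all wild type pools, and pool 3 was the lowest, as it was for Ifi27l2a. The means were 15109 ± 1381 and 9619 ± 1931, a log2 difference of -0.66 (SE 0.16, 95% interval -1.03 to -0.30, adjusted p 0.0180). Of the probe sets tested, 689 had a lower difference, so the fall of Ifi27 was one of many of its size. The call was lost without wild type pool 1 or 3, at adjusted p of 0.0522 and 0.0731, where the differences were -0.68 and -0.59. With the macrophage marker level as a covariate the difference was -0.91 and the adjusted p 0.303.

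The log2 difference was larger for Ifi27l2a than for Ifi27. On the log2(signal + 80.0) scale, Ifi27l2a minus Ifi27 was -0.33, -0.28 and -0.49 in wild type pools 1, 2 and 3. In LH transgenic pools it was -1.91, -1.53 and -2.27. The groups did not overlap and differed by -1.54. An exact two-sided permutation test over the 6 arrays gave p = 0.1, the smallest that 3 arrays against 3 allow, so this design cannot show by that test that the pair changed unequally. The RefSeq spans of the genes overlap and Ifi27 is also listed as an older name of Ifi27l2a, so each value is tied to its probe set (92718_at for Ifi27l2a and 93775_at for Ifi27).

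Markers of other cells moved with the ISG12 pair. Of 13 tested probe sets of fat cell markers 11 were called lower and 0 higher by limma, with a mean centred log2 level from 0.48 to 0.69 in wild type pools and from -0.71 to -0.49 in LH transgenic pools. Of 14 tested probe sets of endothelial markers 12 were called lower and 0 higher, with levels of 0.34 to 0.59 in wild type and -0.55 to -0.39 in LH transgenic pools. Of 18 tested probe sets of fibroblast markers 11 were called lower. Skeletal muscle markers also had 7 of 18 tested probe sets called lower, though LH transgenic pool 3 had a level of 0.56 there. Over all probe sets tested, 10.8% were called lower. LH transgenic pool 3, lowest for Ifi27l2a and Ifi27, was also lowest for the fat cell list but highest of its group for the endothelial list. The part of these cells in the fall of the pair was not tested.

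**Figure D2:**
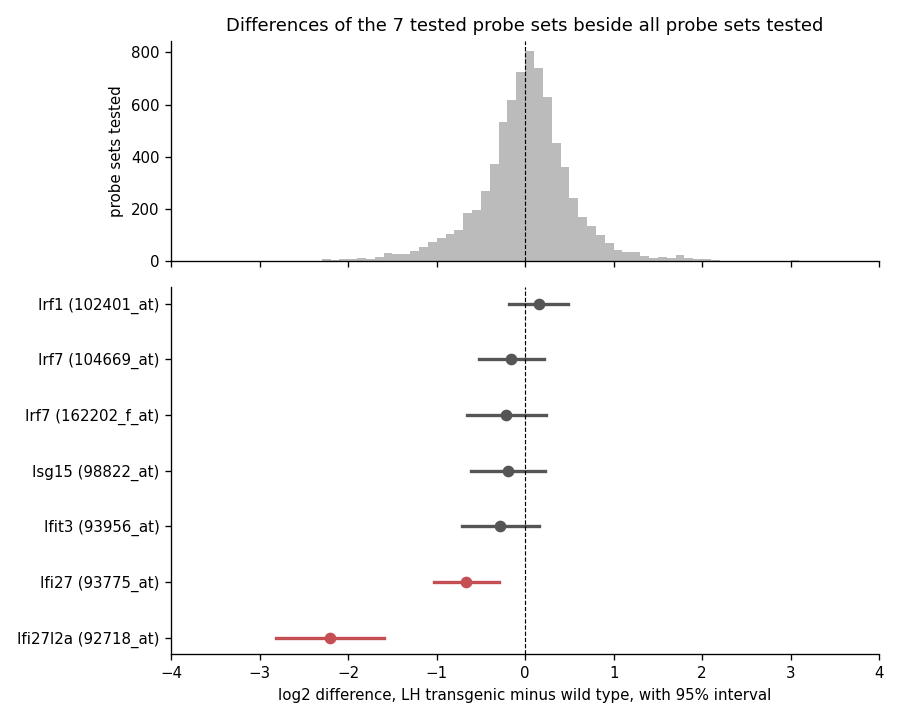
Upper panel, number of tested probe sets (vertical axis) by log2 difference, LH transgenic minus wild type; lower panel, the 7 tested member probe sets with 95% intervals from limma, called ones in red. Ifi27l2a lies at -2.20 in the far left tail, Ifi27 at -0.66, and the intervals of the other 5 include 0.

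Isg15, which encodes a ubiquitin-like modifier coupled to proteins in interferon-treated cells, had signals of 1271, 1269 and 840.6 in wild type pools 1, 2 and 3. Its LH transgenic signals were 993.3, 1046 and 850.0 in the same order. Pool 3 was the lowest of its group in both genotypes, and the groups overlapped. The difference was -0.19 (SE 0.19, 95% interval -0.61 to 0.23, adjusted p 0.506), and with bacterial control scaling it was -0.83 and called lower (adjusted p 0.00623). Isg15 is the gene with the 3 overlapping ISRE core matches printed above.

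Ifit1 and Ifit3 encode proteins that bind viral RNA, and both are among the genes most readily induced by type I interferon. Ifit1 was dim, at 275.2, 355.1 and 195.0 in wild type pools and 275.5, 322.7 and 402.6 in LH transgenic pools 1, 2 and 3. Its overall mean of 304.4 lay under the limit of 336.0, so it was not tested, and the groups overlapped. With no limit on signal, its difference was 0.23 (adjusted p 0.617 over all probe sets).

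Ifit3 had signals of 499.3, 427.7 and 438.2 in wild type pools 1, 2 and 3 and of 405.4, 367.6 and 311.5 in LH transgenic pools. All LH transgenic values lay below all wild type values, by a gap that was small beside the spread. The difference was -0.28 (SE 0.19, 95% interval -0.71 to 0.15, adjusted p 0.339), and with bacterial control scaling it was -0.85 and called lower (adjusted p 0.0189). Groups without overlap were found for 3 of the 7 tested member probe sets and for 40.4% of all probe sets tested, so a lack of overlap is common in these data.

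Irf7, the transcription factor that amplifies type I interferon production and is itself induced by interferon, had 2 probe sets. The brighter, 104669_at, had signals of 734.3, 801.2 and 627.1 in wild type pools and 592.8, 698.6 and 621.2 in LH transgenic pools. Its groups overlapped, with a difference of -0.16 (SE 0.17, 95% interval -0.53 to 0.22, adjusted p 0.548). The dimmer, 162202_f_at, whose suffix marks probes shared with related sequences, had 490.6, 394.0 and 421.9 in wild type and 420.2, 314.8 and 359.7 in LH transgenic pools, which overlapped as well. Its difference was -0.22 (SE 0.20, 95% interval -0.66 to 0.23, adjusted p 0.487). With bacterial control scaling the differences were -0.77 and -0.78 and both were called lower (adjusted p 0.0168 and 0.0313). The probe sets had the same sign but ordered the pools differently, since pool 2 was the highest of each group on the first and the lowest on the second.

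Irf1, the factor that interferon gamma induces directly and that also acts in growth arrest, was the member with the most positive tested difference. Its signals were 4171, 3758 and 3821 in wild type pools 1, 2 and 3 and 3629, 4460 and 5104 in LH transgenic pools. LH transgenic pool 1 lay below every wild type pool and pools 2 and 3 above them. The difference was 0.15 (SE 0.15, 95% interval -0.18 to 0.48, adjusted p 0.510). With bacterial control scaling the Irf1 difference was -0.53 and still not called (adjusted p 0.0737).

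Upstream of these genes, the interferon ligands were dim. Of 10 probe sets for 9 ligand genes, 8 lay under the limit, with signals of at most 295.3, among them those of Ifnb1 (51.5 to 98 over the 6 arrays) and Ifng (3.2 to 25.4). The 2 tested, of Ifna5 and Ifnab, had differences of -0.60 (adjusted p 0.0582) and 0.24 (adjusted p 0.658). The LH transgenic mean of Ifna5 (295.8) lay below the limit, so it was tested only through the wild type arrays, with a mean of 486.9. For Ifnab the wild type mean (335.5) lay just below the limit. Both probe sets carry the suffix for probes shared with related sequences, so their values cannot be tied to single ligand genes. Detection calls were not used here, so whether the dim ligand probe sets measured any transcript cannot be said.

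Of 20 tested probe sets of interferon receptors and signalling proteins, 2 were called higher and 0 lower by limma, with a median difference of 0.21. Over all probe sets tested 10.5% were called higher and 10.8% lower, so 2 of 20 higher is near the share of all. Tyk2, the kinase of the type I receptor, rose from 118.3, 88.5 and 143.1 in wild type pools to 826.5, 719.6 and 375.8 in LH transgenic pools, without overlap. Its difference was 1.82 (SE 0.30, adjusted p 0.00303), but its wild type mean of 116.6 was below the limit of 336.0, so it was tested only through the LH transgenic arrays, and its fold depends on the added 80.0. With no limit on signal its adjusted p was 0.00835. The call was lost with the muscle marker level (1.17, adjusted p 0.0509) or the macrophage marker level (1.43, adjusted p 0.371) as a covariate. Jak2, a kinase shared by the interferon gamma receptor and the prolactin receptor, rose by 0.63 (SE 0.18, adjusted p 0.0369), from 1184 ± 80.1 to 1907 ± 486.1. The Jak2 call was lost without any one of wild type pools 1, 2 and 3 or LH transgenic pools 1 and 3, with differences of 0.44 to 0.66, and the sign turned with bacterial control scaling (-0.027). The receptor chain genes were not called, with differences of -0.17 for Ifnar1, 0.28 and 0.32 for the probe sets of Ifnar2, 0.20 for Ifngr1 and 0.49 for Ifngr2. Without LH transgenic pool 3, Ifngr2 (0.66) was called higher and Ifnar1 (-0.51) lower. Neither were Jak1 (-0.15) and Irf9 (-0.20), the DNA-binding partner of the STAT factors.

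None of 4 tested probe sets of other interferon regulatory factors and their binding proteins was called by limma, beside 21.3% of all probe sets tested. Irf3, which starts interferon production after virus sensing, had a difference of -0.15 (adjusted p 0.600), and Irf5 and Irf8, factors of myeloid cells, had 0.39 and -0.21. Irf2bp1, which encodes a protein that binds IRF2 and is not itself such a factor, had 0.15.

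Other genes known to be induced by type I interferon held 24 tested probe sets, with a median of 0.08. By limma 6 were called higher and 0 lower, beside 10.5% and 10.8% of all probe sets tested. Plscr1, a phospholipid scramblase, rose from 2079, 2474 and 1553 in wild type pools to 6649, 5616 and 5199 in LH transgenic pools. These groups were well apart, and the difference was 1.5 (SE 0.18, adjusted p 0.000790). Its relative Plscr2 rose by 0.96 (adjusted p 0.0172), and the antibody receptor gene Trim21 rose on both its probe sets (0.80 and 0.73). Without wild type pool 3, Plscr2 (0.81) and the first probe set of Trim21 (0.62) were not called, and with bacterial control scaling they were 0.30 and 0.14 and not called. The exonuclease gene Isg20 (0.66) and Ly6e (0.55) completed the calls and are named after their values were seen. With no limit on signal, Ly6e (adjusted p 0.0865) and the second probe set of Trim21 (adjusted p 0.0749) were not called by limma. Ifitm3, which blocks virus entry, had 12739 ± 860 in the wild type group and 10258 ± 1343 in the LH group (difference -0.32, adjusted p 0.122). The antiviral genes Mx1, Mx2, Ifit2, Rsad2 and Oas1g all lay under the limit and were not tested, their highest signal being 464.0 for Rsad2.

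Genes known to be induced by interferon gamma held 21 tested probe sets, with a median of 0.28. By limma 5 were called higher and 0 lower, beside 10.5% and 10.8% of all probe sets tested. The GTPase gene Ifi47 rose from 820.8 ± 94.7 to 1567 ± 234 (difference 0.87, SE 0.16, adjusted p 0.00541), and with bacterial control scaling its difference was 0.22 (adjusted p 0.461). The lysosomal thiol reductase gene Ifi30 (0.82), the adhesion gene Icam1 (0.75), Il18bp (0.67) and Casp1 (0.50) rose too, the last 2 named after their values were seen. Ifi30 was not called without wild type pool 1 (0.90) or 3 (0.56) or without LH transgenic pool 1 (0.87) or 2 (0.68), and Icam1 not without pool 1 of either genotype (0.65 and 0.63). With bacterial control scaling they were 0.15 and 0.10 and not called. With no limit on signal, Ifi30, Il18bp and Casp1 were not called by limma (adjusted p 0.0663, 0.0757 and 0.0796). The chemokine gene Cxcl9 had a difference of -0.52 (adjusted p 0.269), with wild type signals of 1314, 502.3 and 833.1 and LH transgenic signals of 404.3, 689.4 and 600.0. The guanylate-binding protein genes Gbp2, Gbp3 and Gbp7 had -0.25, 0.31 and 0.30 and were not called.

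Of 19 tested probe sets of MHC class I presentation, 2 were called higher and 0 lower, with a median of 0.17. Over all probe sets tested 10.5% were called higher and 10.8% lower, so 2 of 19 higher is near the share of all. B2m, the invariant light chain, rose by 0.58 (adjusted p 0.0255) and the immunoproteasome subunit gene Psmb8 by 0.48 (adjusted p 0.0334), though with bacterial control scaling these were -0.11 and -0.21. The B2m call was lost when any one of wild type pools 1 and 3 or LH transgenic pools 2 and 3 was left out (0.50 to 0.58), and that of Psmb8 when any array but LH transgenic pool 3 was (0.35 to 0.53). Psmb9 and Tap1, which neighbour Psmb8 and are induced with it by interferon gamma, had 0.05 and 0.17 and were not called.

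**Figure D3:**
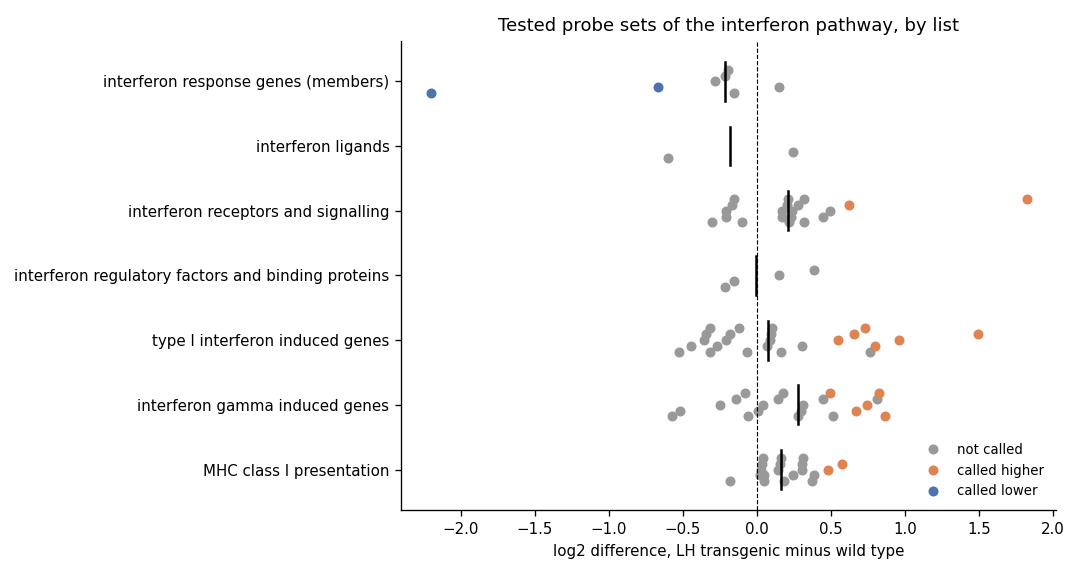
Log2 difference, LH transgenic minus wild type (horizontal axis), of each tested probe set by list, with black bars at list medians; orange points were called higher and blue points lower. The 2 blue points are Ifi27l2a and Ifi27, and no other point lies as far to the left as Ifi27.

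Over these lists together, 15 of 90 tested probe sets (16.7%) were called higher, beside 10.5% of all probe sets, and 0 were called lower by limma, beside 10.8%. At an unadjusted p under 0.05, 5 were lower and 25 higher. The median was 0.17, and 0 of the 90 had a difference as low as that of Ifi27. Among list probe sets under the limit, those of Irf4 (-0.94, groups overlapping) and H2-Q1 (-0.667, groups not overlapping) lay lower than Ifi27 (-0.664). With no limit on signal, neither was called by limma (adjusted p 0.17 and 0.0893). The count of 15 fell to 4 when wild type pool 3 was left out, to 7 when wild type pool 1 was, to 9 when LH transgenic pool 1 was, and to 2 when arrays were scaled to the bacterial controls, where 37 were called lower. Macrophage markers were higher in the same glands, with 6 of 15 tested probe sets called higher and 0 lower and levels of -0.45 to -0.05 in the wild type pools against 0.11 to 0.39 in the LH transgenic pools, and their part in the rise of the list genes was not tested.

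Calls were also counted by promoter motif. Of 171 tested probe sets whose gene had the ISRE core letters in a window, 13.5% were called higher and 11.7% lower. Of 5288 whose gene had a promoter but held them in none of its windows, the shares were 10.1% and 10.7%. For the GAS letters the shares were 10.5% and 11.3% with them and 10.2% and 10.7% without. Within the interferon lists other than that of the ligands, 9 tested genes held the ISRE core letters, of which B2m alone was called. In the same lists 17 tested genes held the GAS letters, of which Icam1, Isg20, Plscr1 and Psmb8 were called higher. The members, Isg15 and Ifit3 among them, are not part of these list counts. These are descriptions of letter matches, with no test.

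Within each genotype the pools differed in their interferon-induced genes. Among the wild type arrays, pool 3 had the lowest signal for 15 of the 24 tested probe sets of type I induced genes, 12 of 21 of interferon gamma induced genes and 12 of 19 of class I presentation. Over all tested probe sets pool 3 was the lowest wild type array in 35%. Of the 8 member probe sets, only 3, those of Isg15, Ifit1 and the brighter of Irf7, had their lowest wild type value in pool 3. That is 37.5%, near the share of all tested probe sets. The other 5 (62.5%) had it in pool 2, beside 34.2% of all tested probe sets. With 8 probe sets, 2 of them of Irf7, these counts are too few to say whether the members share the pool 3 pattern of the lists. In the LH transgenic group, pool 2 was the highest for 15 of 19 probe sets of class I presentation, beside 31.3% of all probe sets tested. The wild type values of Ifi27l2a lay within 11504 to 11810.0, with pool 2 the lowest.

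**Figure D4:**
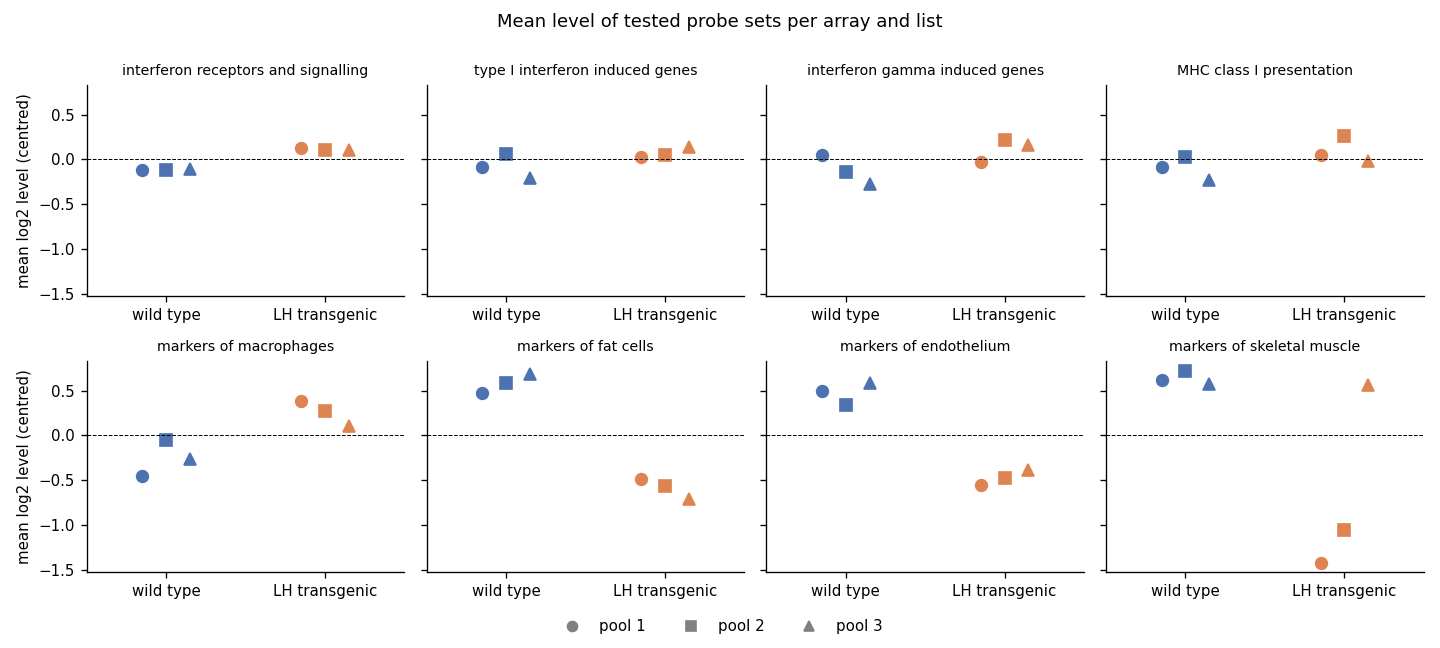
Mean centred log2 level of the tested probe sets of each list (vertical axis) in each array, with marker shapes for pools 1 to 3. Wild type pool 3 is the lowest array for type I induced, interferon gamma induced and class I presentation genes (-0.21, -0.28 and -0.23), fat cell and endothelial markers separate the groups, and LH transgenic pool 3 stands at 0.56 for skeletal muscle.

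The genes whose signals ran most like each member over the 6 arrays were found by Pearson's r on the log2 scale, among tested probe sets with 1 gene. For Irf7 only the brighter probe set, 104669_at, was used, and the dimmer one ordered the pools differently. For Ifi27l2a these were Akt2 and Sult1a1, both at r = 0.997, and 9 probe sets had an r above 0.99. For Ifi27 they were Lgals1 (r = 0.996) and Tkt (r = 0.992). For these 2 members the arrays fall into 2 groups by genotype, and likeness within a genotype was not computed. The most alike of the others were Tmem126a and Snhg5 for Irf1 (0.995 and 0.984), Wnk2 and Arf3 for Irf7 (0.993 and 0.966), S100a10 and Cdadc1 for Isg15 (0.99 and 0.989), and Amacr and Rdx for Ifit3 (0.989 and 0.988). The number of probe sets with an r above 0.95 was 178 for Ifi27l2a, 117 for Ifi27, 32 for Ifit3, 12 for Irf1, 7 for Isg15 and 3 for Irf7. These values are a description over 6 arrays.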

How the data were processed

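The 6 RNA pools (3 of each genotype) were hybridised to Affymetrix mouse arrays, and groups were taken from the source name in the labels. The deposited table holds a linear intensity for each probe set on each array. The submitters' processing notes name MAS5 as the software, and its version is not given in the sources used here. The labels give no pairing and no batch, and the small number of arrays limits the precision. The members and lists were chosen with earlier results of these data known.

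Values were used as deposited. The pseudocount of 80.0 was the 20th percentile of all values and the signal limit of 336.0 the 40th percentile of probe set means, with 66 control probe sets left out. Fold changes of dim probe sets are understated. The fit was limma 3.58.1 in R 4.3.3 (lmFit, eBayes with a trend, two-sided, Benjamini-Hochberg) across all 7453 tested probe sets, checked on simulated data. Of the probe sets, 10833 had 1 gene symbol, 396 several and 1193 none, in an annotation that can be old, and 0 symbols changed through the RefSeq table. List levels are means of log2 values centred per probe set. The text names each member probe set, the largest called changes of each list (up to 3 genes per direction), fixed receptor, kinase and factor genes, and the 2 genes most alike each member. Other genes named with values, among them Ifna5, Ifnab, Ifnb1, Ifng, Irf5, Irf8, Irf2bp1, Cxcl9, Gbp2, Gbp3, Gbp7, Psmb9, Tap1, Krt18, Csn2 and the antiviral genes under the limit, were chosen after their values were seen. Promoters and genes were matched by symbol, and 5 of the 7 members had a promoter. Figures were drawn with matplotlib 3.10.9.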

Additional observations from a re-analysis of the deposited data

How the results depend on the processing

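Across 18 other settings 0 member probe sets were called higher, and Ifi27l2a and Ifi27 stayed below 0. All counts are from limma. Of 7 tested, 2 were called lower, 6 after scaling to the bacterial hybridisation controls and 0 with the macrophage level as a covariate. Bacterial scaling moved the median of all probe sets from 0.02 to -0.62 and called 3999 probe sets, and the macrophage covariate left 6 calls of any gene, against 1586. A covariate for skeletal muscle level left 777 calls in all, Ifi27l2a (-2.90) and Ifi27 (-1.03) among them. Leaving out 1 array gave 941 to 1641 calls in all and 1 to 2 members lower. Interferon list calls were added as a result after the data were seen. The 15 higher became 2 with bacterial scaling, 7 with no filter, 8 and 0 with the muscle and macrophage covariates, and 4 to 14 without 1 array. The 0 lower became 2 with quantile normalization, 37 with bacterial scaling, 3 with eBayes without a trend, 2 with array weights, and 0 to 3 without 1 array. With bacterial scaling Jak2 (-0.027), B2m (-0.11) and Psmb8 (-0.21) turned below 0. Jak2, Ifi30, B2m and Psmb8 lost their calls under 8, 8, 10 and 11 of 18 settings. Causes were not tested. No paired analysis was possible because pool numbers are names only. Since every array has the same trimmed mean signal, a change common to most genes is not measured, and without detection calls dim probe sets such as Ifit1 are limited by background.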

Other observations

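Genes beside the ISG12 pair on the chromosome were described with the 3 nearest genes on each side that had a tested probe set. Ddx24, an RNA helicase gene, was called lower on 1 probe set (-0.55, adjusted p 0.0432) and had 0.30 on the other (adjusted p 0.512). Ubr7 and Cox8c had -0.25 and 0.04 and were not called. The serpin genes Serpina1b, Serpina1c and Serpina1e, which encode protease inhibitors known from liver, had differences between -0.71 and 0.08 with adjusted p of at least 0.0625. Of their 4 probe sets, 3 carry the suffix for probes shared with related sequences. Probe sets of Serpina1c (-0.71) and Serpina1e (-0.71) lay lower than Ifi27 (-0.66), and none of these neighbours lay as low as Ifi27l2a (-2.20).

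Markers of immune cells other than macrophages were called in both directions, beside 21.3% of all tested probe sets called. Of 8 tested probe sets of B and plasma cell markers 1 was called higher and 1 lower, of 5 of T and NK cell markers 1 was called higher, and of 5 of neutrophil markers 1 was called higher, with 0 lower in the last 2 lists by limma. These were Blnk (1.15), Ebf1 (-0.997), the granzyme gene Gzmb (1.13) and S100a8 (1.07). Ebf1 is also a gene of fat cells. Of 4 tested probe sets of plasmacytoid dendritic cell markers, the cells that release most type I interferon, Cox6a2 (-1.52) and Tcf4 (-0.81) were called lower. Spib (0.81) was called higher and 1 was not called. The median difference of that list was -1.02, with levels of 0.15 to 0.62 in wild type pools and -0.36 to -0.33 in LH transgenic pools. Cox6a2 is also a muscle gene, and its LH transgenic values of 645.4, 1244 and 3419 followed the muscle levels of the pools. Of the remaining lists, 7 of 15 luminal probe sets were called higher and 3 lower, 2 of 9 basal ones higher and 1 lower, 7 of 18 skeletal muscle ones lower, and 13 of 15 milk and alveolar ones higher.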
